A study of Homo sapiens with 19 samples.

Results

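The vitamin C (vit C) and glucose transporters described here were the 8 genes SLC23A1, SLC23A2, SLC2A1, SLC2A3, SLC2A5, SLC2A6, SLC2A8 and SLC2A9, taken by exact gene name from the 31033 gene names on the expression array. RNA was measured on 19 one-colour arrays from THP-1 cells, a monocytic line derived from a patient with acute leukaemia, which had all been turned into macrophage-like cells by 16 to 18 h in the phorbol ester PMA at 30 nM and then rested for 2 to 3 h. The cells were left untreated (UT) or given 0.1 mM vit C and collected after 8, 24, 48 and 96 h. The UT groups held 2, 3, 2 and 3 arrays in order of time and the vit C-treated groups held 3, 2, 2 and 2, and the study's methods call them biological replicates. A single line was used, so the spread between arrays covers neither donors nor primary macrophages, and the RNA came from whole cultures, in which fewer cells of a kind and less RNA per cell cannot be told apart. The questions were whether the transporter RNAs moved over time in UT cells, and whether vit C moved them.

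The 2 gene families carry vit C in different chemical forms. SLC23A1 (SVCT1) and SLC23A2 (SVCT2) are sodium-coupled transporters that bring in ascorbate, the reduced form, against its gradient, and SVCT2 is the one most tissues use. The SLC2A genes encode the facilitated hexose carriers (GLUTs). SLC2A1 (GLUT1) and SLC2A3 (GLUT3) carry glucose and also dehydroascorbic acid, the oxidized form, which cells reduce back to ascorbate once it is inside. SLC2A5 (GLUT5) is the fructose carrier, SLC2A8 (GLUT8) sits mainly on internal membranes, SLC2A6 (GLUT6) is a lysosomal member found in leukocytes, and SLC2A9 (GLUT9) carries urate. Macrophages take up much of their energy as glucose, and SLC2A1 is their usual main carrier.

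The array held 15 probes for the 8 genes. Below are 5 of the 60-base probe sequences, shown because their readings are set against another probe or array further on: 2 SLC2A9 probes that moved the same way, the second SLC23A2 probe, a SLC2A8 probe that stood apart in 1 array, and the dim SLC2A3 probe. They are in lower case throughout because no part is singled out, and they were copied from the deposited scanner files, whose probe positions refer to build hg18 and were not used here.
SLC2A9 probe 1: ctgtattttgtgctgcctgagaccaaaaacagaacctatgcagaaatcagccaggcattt
SLC2A9 probe 2: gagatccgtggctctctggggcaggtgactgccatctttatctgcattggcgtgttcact
SLC23A2 probe 2: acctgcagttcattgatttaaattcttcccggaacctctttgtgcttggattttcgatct
SLC2A8 probe 3: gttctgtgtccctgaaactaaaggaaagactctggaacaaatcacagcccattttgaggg
SLC2A3 probe 2: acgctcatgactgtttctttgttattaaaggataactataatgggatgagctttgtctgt
The accessions given for SLC2A3 probe 2 also belong to SLC2A14, a near-identical neighbour of SLC2A3, so this probe cannot be assigned to SLC2A3 alone.

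Levels are given as normalized log2 signal, the log2 of the scanner's processed signal minus the array's own 75th percentile, so that 0 is the brightness below which 3 in 4 spots lie. They compare 1 probe between arrays and never 1 gene with another. Where a gene had several probes, the brightest stands for it. The 75th percentile signal ran from 290.2 to 903.5 units, and both vit C-treated 96 h arrays, at 787.6 and 903.5, were brighter than all others. Probes well above background made up 57.5% to 72.8% of an array, no spot was saturated, and replicate arrays correlated at 0.9618 to 0.9901 over all probes. No slide held both treatments at any single time. Slide 1 held the UT arrays except UT 96 h replicates 2 and 3, and slide 4, scanned on another day, held only the vit C-treated 96 h arrays, so at 96 h vit C, slide and scan day cannot be told apart. The vit C-treated 8 h arrays were all on slide 2. In that arm the time from 8 h to 96 h therefore cannot be told apart from slide and scan day either. Of 10 monocyte and macrophage markers, 9 were well above background on all 19 arrays and LYZ on 18. Of the 3 fibroblast markers and of the 3 erythroid markers, none was above background on all arrays, against 1 of 3 T cell, 2 of 3 B cell and 1 of 2 measured epithelial markers.

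6 of the 8 genes had a probe well above background on all 19 arrays. SLC23A1 was above background on none of them. The brighter SLC2A3 probe was above it on 15 arrays and the dim SLC2A3 probe on none. Over all arrays, the normalized log2 signal had a lowest, median and highest value of 3.33, 3.98 and 4.56 for SLC2A1. Those values were 2.33, 4.12 and 4.72 for SLC2A5 and 1.13, 1.61 and 2.18 for SLC2A8. They were -1.17, 1.22 and 2.11 for SLC2A6, and the 2 widest spreads of group means belonged to SLC2A9 (2.58) and SLC2A6 (2.19). The narrowest spreads of group means belonged to SLC2A8 (0.79), SLC2A3 (0.92) and SLC2A1 (0.94). Single arrays of the brighter SLC2A3 probe ranged over 2.68.

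**Figure D1:**
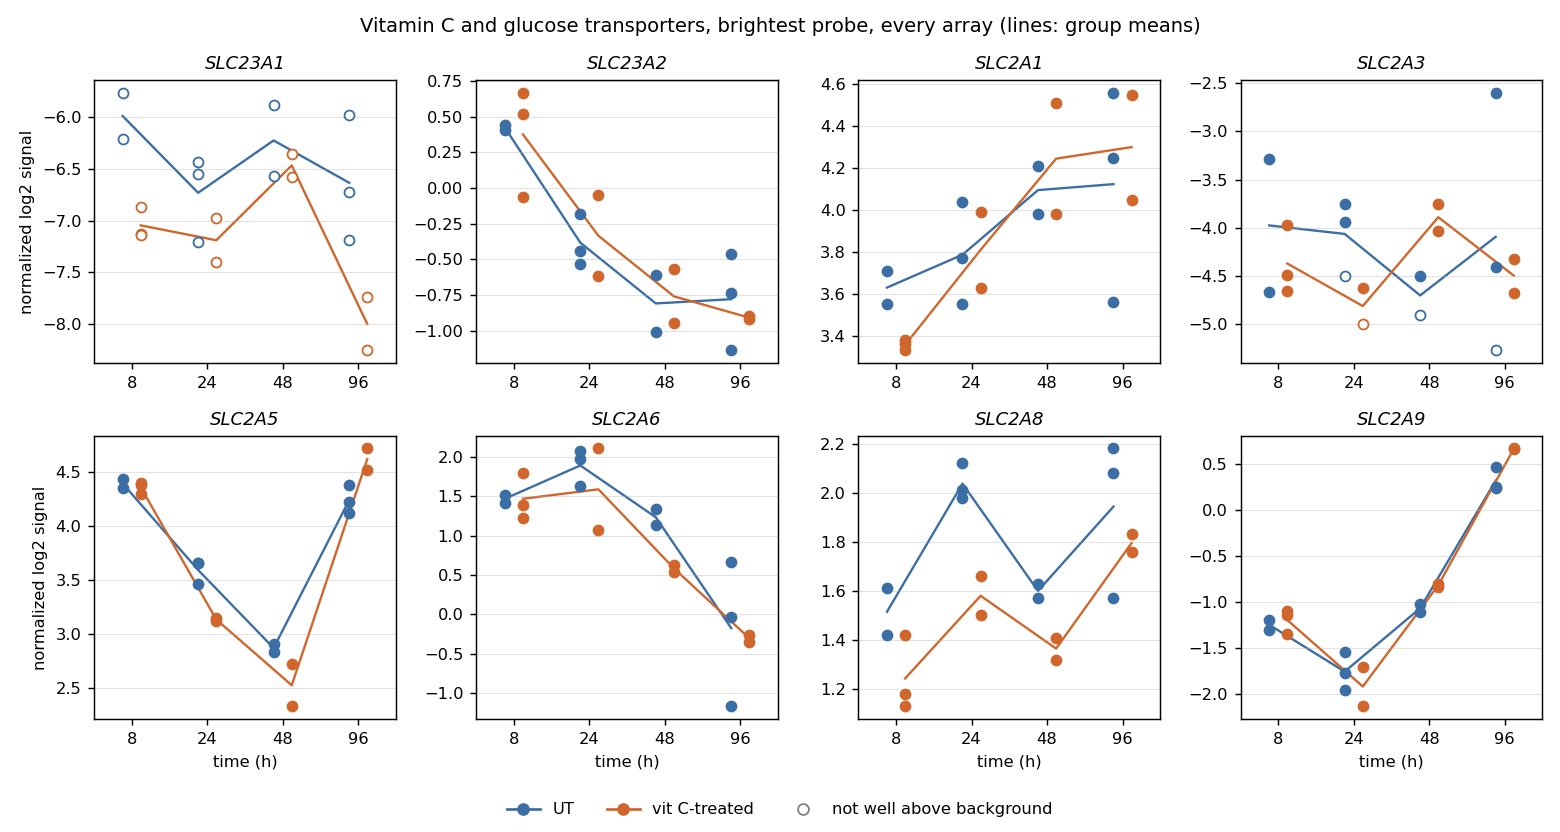
Normalized log2 signal of the brightest probe of each of the 8 transporters (vertical axis) against time in hours (horizontal axis), 1 point per array with lines through the group means, UT in blue and vit C-treated in orange; open points are not well above background. SLC2A5 dips at 48 h in both arms and is back near its starting level at 96 h, SLC2A9 is highest at 96 h, SLC2A6 is lowest there, and all SLC23A1 points are open.

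No transporter that was above background passed the test between vit C-treated and UT cells at any time. On the brightest probe of the 6 genes measured on all arrays, the 24 differences between vit C-treated and UT groups lay between -0.65 and 0.38 on the log2 scale, so the largest was 1.57-fold. Of these, 9 were above 0 and 15 below 0. The 95% interval of the difference held 0 in 21 of 24 cases, and the bounds of all intervals ran from -1.63 to 0.89. The lowest bound belonged to SLC2A6 at 48 h, whose difference of -0.65 (-1.63 to 0.33) also held larger decreases.

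A gene was called when 1 of its probes differed by 1 or more on the log2 scale with a Benjamini-Hochberg q in limma no higher than 0.05. Genes whose probes moved in opposite directions were first set aside, and q was taken over the probes left. Before 96 h limma called none of the 8 genes. Among all genes tested, the called share was 0.549% at the 8 h time point, 1.65% after 24 h and 3.64% after 48 h. Among the 6, 6 and 5 of the 8 genes not set aside, an unadjusted p of at most 0.05 at any fold was reached by 1, 2 and 0 genes at these times, and the methods' t-test after Benjamini-Hochberg called 0 at each. At 96 h 1 of the 6 genes not set aside, SLC23A1, was called, lower in vit C-treated cells. Of all genes tested, 12.8% were called and 10.1% called lower. That call rested on signals below background and is described with SLC23A1.

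The 3 intervals without 0 belonged to SLC2A5 and SLC2A8. At 24 h, SLC2A5 read 3.12 and 3.15 in vit C-treated cells and 3.66, 3.46 and 3.66 in UT cells. These groups did not overlap, as was so in this direction for 18.1% of all genes, and the difference of -0.46 had an interval of -0.83 to -0.09 and a limma q of 0.197. The 24 h difference of SLC2A8 was also -0.46 (-0.87 to -0.04, limma q = 0.253), from 1.66 and 1.5 against 2.12, 1.98 and 2.01. At 96 h SLC2A5 was 0.38 higher with vit C (0.01 to 0.75), where its probes moved in opposite directions and its q with such genes kept was 0.173 in limma. None of the 3 passed the test. For SLC2A1, the glucose carrier, the difference was -0.27 (-0.88 to 0.34) at 8 h and 0.18 (-0.43 to 0.78) at 96 h. For SLC23A2 it was -0.13 (-0.71 to 0.45) at 96 h.

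Some dimmer probes differed more at 48 h. SLC23A2 probe 2 read -2.81 and -3.42 with vit C and -2.27 and -2.28 without. The difference was -0.84 (1.79-fold, SE 0.32, limma q = 0.23 with opposing probes kept), while the brightest probe differed by 0.05 and the gene was set aside. SLC2A9 probes 2 and 3 were 0.56 and 0.61 higher with vit C at 48 h and did not pass (limma q = 0.426 and 0.317).

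**Figure D2:**
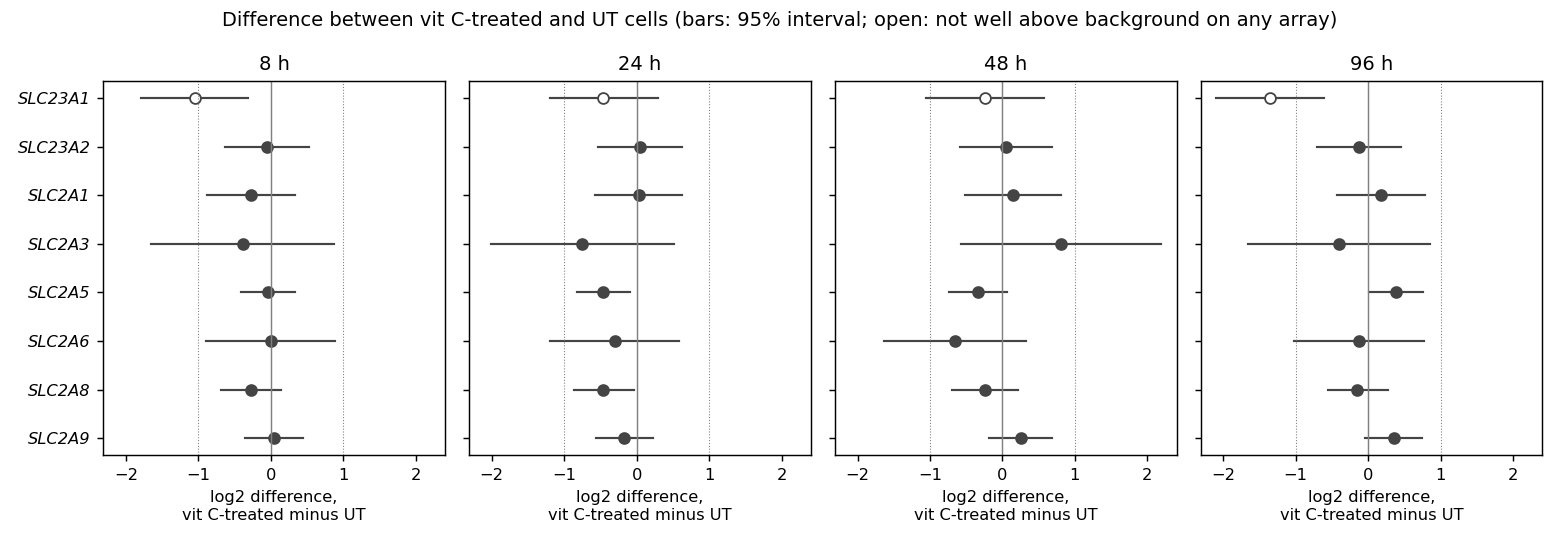
Log2 difference, vit C-treated minus UT, of the brightest probe of each of the 8 transporters (horizontal axis) with its 95% interval, 1 panel per time; dotted lines mark a log2 difference of 1 in either direction and the open symbol marks SLC23A1, never above background. Most intervals hold 0, and among the 6 genes measured on all arrays no difference exceeds 0.65 in size.

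The limma F test of whether the vit C effect differed between the 4 times called 0 of the 8 genes, with 1.36% of all genes called. SLC2A5 was the 1 gene with an unadjusted p under 0.05 (limma q = 0.204). Its vit C differences, in order of time, were -0.04, -0.46, -0.34 and 0.38. Quantile normalization and a floor on dim signals each brought SLC2A5 under the threshold.

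Over time, in contrast, named transporters changed in both arms. In UT cells the limma F test over the 4 times called 4 of the 8 genes, SLC23A2, SLC2A5, SLC2A6 and SLC2A9, with 27.4% of all genes called. With slide as a fixed block it called 2 of them, SLC2A5 and SLC2A9. In vit C-treated cells it called 6 of 8 with 42.6% of all genes called: the same 4 genes, SLC2A1 and the undetected SLC23A1. This count fell to 3 (SLC23A2, SLC2A5 and SLC2A9) without either of the vit C-treated 96 h arrays. The comparisons of 24, 48 and 96 h with 8 h in an arm share its 8 h arrays, so they are not independent of each other. Marker lists of other cell types differed between times as well, the fibroblast list most. In UT cells their summed linear level was between 0.04 and 0.05 at 8 h and between 0.69 and 1.29 at 96 h. With vit C it was between 0.0314 and 0.0552 at 8 h and between 4.32 and 4.91 at 96 h. At 96 h nearly all of this was DCN, which was above background on 14 arrays, while COL1A1 was above it on 5 and COL1A2 on 0. The B cell list summed to between 3.43 and 3.84 at 8 h and between 1.47 and 1.74 at 96 h with vit C, and to between 1.34 and 2.01 at 8 h and between 1.62 and 3.81 at 96 h in UT cells. At 8 h its vit C-treated and UT arrays thus lay apart, as they did at 48 h (3.59 to 4.89 against 1.8 to 2.47). The arms also lay apart at 48 h for the fibroblast list (2.21 to 2.25 against 0.409 to 0.512) and the epithelial list (1.02 to 1.12 against 1.76 to 1.92), and at 24 h for the T cell list (0.187 to 0.214 against 0.141 to 0.156). At 24 h the fibroblast list lay apart too (0.0839 to 0.117 against 0.0652 to 0.0758). For the erythroid list they lay apart at 8 h (0.0502 to 0.0598 against 0.0252 to 0.0486), 24 h (0.0576 to 0.059 against 0.0692 to 0.0765) and 48 h (0.0506 to 0.0573 against 0.0438 to 0.0489). The T cell list lay between 0.139 and 0.162 at 8 h and between 0.196 and 0.201 at 96 h with vit C, and between 0.139 and 0.157 and then 0.164 and 0.192 in UT cells. The part of these markers in the results was not tested.

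SLC23A2, the ascorbate transporter SVCT2, fell with time in both arms. Its brightest probe read 0.44 and 0.41 in UT cells at 8 h, -0.44, -0.18 and -0.53 at 24 h, -1.01 and -0.61 at 48 h, and -0.74, -1.14 and -0.46 at 96 h. Every later UT array was below both 8 h arrays. With vit C it read 0.52, 0.67 and -0.06 at 8 h, -0.62 and -0.05 at 24 h, -0.57 and -0.95 at 48 h, and -0.92 and -0.9 at 96 h. Replicate 3 of the vit C-treated 8 h arrays lay within 0.01 of a 24 h array, so those 2 groups overlapped, while both later groups lay below all 8 h arrays. Among all genes, the arrays lay apart in this direction in 29.3% at 48 h and 19.1% at 96 h in UT cells, and in 24.7% and 40.2% in vit C-treated cells.

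In UT cells SLC23A2 was lower than at 8 h by 2.36-fold at 48 h (log2 -1.24, SE 0.3, limma q = 0.0149) and by 2.31-fold at 96 h (log2 -1.21, SE 0.27, limma q = 0.00502). In vit C-treated cells it was lower by 2.2-fold at 48 h (log2 -1.14, SE 0.27, limma q = 0.00906) and by 2.44-fold at 96 h (log2 -1.29, SE 0.27, limma q = 0.00269). At 24 h the difference from 8 h was -0.81 in UT and -0.71 in vit C-treated cells, where the 2 probes moved in opposite directions and the gene was set aside. The second probe, whose sequence is printed above, fell by 1.43 in UT cells (limma q = 0.00276) and by 1.31 in vit C-treated cells (limma q = 0.00429) at 96 h. At 48 h in UT cells the same probe differed by -0.27 (limma q = 0.629), and over the 19 arrays the 2 probes correlated at 0.54.

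In UT cells at 48 h, 4 of the 8 genes were not set aside. SLC23A2 was the 1 of these called, with 8.9% of all genes tested called and 3.38% called lower. It was likewise the 1 called of the 5 not set aside in vit C-treated cells at 48 h, with 13.1% called and 5.02% called lower. The 48 h UT call was lost without either UT 8 h array, without UT 48 h replicate 1 and with the mean of the 2 probes (log2 -0.75). The 48 h call in vit C-treated cells was lost without vit C-treated 8 h replicate 2 or 48 h replicate 2, the latter the only array of slide 3, where the difference was -0.95.

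SLC23A1, the SVCT1 gene best known from intestine and kidney, was below background in every culture. Its processed signal was 2.95 to 7.91 units on all 19 arrays. At 8 h it was 3.17 to 3.7 in vit C-treated and 7.87 to 7.91 in UT cells. The 75th percentile signals there were 434.4 to 447.4 and 432.4 to 585.4. SLC23A1 was the gene with an unadjusted p of at most 0.05 at 8 h. Its difference of -1.05 (-1.79 to -0.31) was not called (limma q = 0.196). At 96 h the processed signal was 2.98 to 3.69 in vit C-treated and 3.56 to 7.05 in UT cells. On the normalized scale the 96 h values were -7.74 and -8.25 with vit C and -6.73, -5.99 and -7.19 without, and limma called the difference of -1.36 (SE 0.35, q = 0.0313). No fold is given because neither group was above background. The 10084 probes that were above background on no array had a median difference of -0.93 in this comparison, and 89.2% of them were lower in the 2 vit C-treated 96 h arrays, whose 75th percentile signals were the highest of all. The SLC23A1 call was lost with quantile normalization, with another background correction (normexp), with a 75th percentile of detected probes alone and with a floor on dim signals. It was also lost without any 1 array of the comparison except UT 96 h replicate 3.

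SLC2A1, the GLUT1 glucose carrier, changed over time in vit C-treated cells by the F test, and no pair of times reached the fold limit. In UT cells it read 3.71 and 3.55 at 8 h, 4.04, 3.77 and 3.55 at 24 h, 4.21 and 3.98 at 48 h, and 3.56, 4.25 and 4.56 at 96 h. The 96 h group overlapped every other UT group, and the UT F test did not call the gene (limma q = 0.449). With vit C it read 3.38, 3.33 and 3.36 at 8 h, 3.99 and 3.63 at 24 h, 3.98 and 4.51 at 48 h, and 4.05 and 4.55 at 96 h. Both 96 h arrays lay above all 8 h arrays of this arm, as was so for 27.2% of all genes. The log2 difference from 8 h was 0.88 at 48 h (1.84-fold, limma q = 0.0464) and 0.94 at 96 h (1.92-fold, limma q = 0.0198), under the fold limit at both times, and the F test over time gave a limma q of 0.045. That call was lost without either vit C-treated 96 h array, with a floor on dim signals, with slide as a random block and with the replicate block. The UT differences were 0.46 at 48 h (limma q = 0.369) and 0.49 at 96 h (limma q = 0.259), and the arms were not shown to differ.

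SLC2A3, the high-affinity GLUT3 glucose carrier, was dim. The brighter probe lay between -5.27 and -2.6, with the highest and lowest value both in the UT 96 h group (-4.41, -2.6 and -5.27). All 8 group ranges overlapped with their neighbour in the order of group means, and the F test called the gene in neither arm (limma q = 0.756 and 0.906 for the 2 probes in UT cells). The dim probe, at -7.87 to -5.32 and above background on no array, was called lower in vit C-treated cells at 96 h against 8 h (log2 -1.25, limma q = 0.0459), while the brighter probe differed by -0.13 (limma q = 0.877). No fold is given for the dim probe, which also matches SLC2A14.

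SLC2A5, the fructose carrier, dipped at 24 and 48 h and was back near its first level at 96 h. In UT cells its bright probe read 4.35 and 4.44 at 8 h, 3.66, 3.46 and 3.66 at 24 h, 2.91 and 2.83 at 48 h, and 4.12, 4.22 and 4.38 at 96 h. With vit C the readings were 4.3, 4.38 and 4.4 at 8 h, 3.12 and 3.15 at 24 h, 2.33 and 2.72 at 48 h, and 4.72 and 4.52 at 96 h. In both arms every 48 h array lay below every 8 h array. This was so for 29.3% of all genes in UT and 24.7% in vit C-treated cells.

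From 8 h, SLC2A5 was lower by 1.75-fold at 24 h (log2 -0.8, SE 0.17) and 2.89-fold at 48 h (log2 -1.53, SE 0.19) in UT cells. It was lower by 2.34-fold at 24 h (log2 -1.22, SE 0.17) and 3.57-fold at 48 h (log2 -1.83, SE 0.17) in vit C-treated cells. By 96 h the difference from 8 h was -0.16 in UT cells (limma q = 0.564) and 0.26 in vit C-treated cells (limma q = 0.269 with opposing probes kept). The F tests over time gave a limma q of 6.63e-05 in UT cells and 2.2e-06 in vit C-treated cells.

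SLC2A5 was set aside in the pairs of times at 24 and 48 h because a second, dim probe, for which no RefSeq accession was found in the files, moved the other way, and the UT difference at 24 h was also under the fold limit. With such genes kept, the limma q values of the bright probe were 0.0255 and 0.000129 in UT cells and 0.000644 and 5.13e-06 in vit C-treated cells. The dim probe stayed between -4.89 and -3.02 and correlated with the bright one at -0.35 over the 19 arrays. With the mean of both probes the difference was -0.72 in UT cells at 48 h, and with vit C it was -0.6 at 24 h and -0.62 at 48 h. In the order of group means from lowest to highest (vit C-treated 48 h, UT 48 h, vit C-treated 24 h, UT 24 h, UT 96 h, vit C-treated 8 h, UT 8 h, vit C-treated 96 h), the means ran from 2.52 to 4.62 and among neighbours in this order only UT 96 h with vit C-treated 8 h, and the latter with UT 8 h, overlapped.

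SLC2A6, the lysosomal GLUT6, was lowest at 96 h. In UT cells it read 1.52 and 1.42 at 8 h, 1.63, 1.97 and 2.08 at 24 h, 1.34 and 1.13 at 48 h, and -0.03, 0.67 and -1.17 at 96 h. With vit C the readings were 1.39, 1.22 and 1.8 at 8 h, 2.11 and 1.07 at 24 h, 0.54 and 0.63 at 48 h, and -0.35 and -0.26 at 96 h. The 96 h arrays lay below every 8 h array in both arms, as was so for 19.1% of all genes in UT and 40.2% in vit C-treated cells. The UT 96 h group was the most scattered of the gene's groups (SD 0.93, n = 3).

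Against 8 h, SLC2A6 was 3.13-fold lower at 96 h in UT cells (log2 -1.65, SE 0.42, limma q = 0.0109) and 3.42-fold lower in vit C-treated cells (log2 -1.77, SE 0.42, limma q = 0.00581). At 48 h the difference was -0.23 in UT cells (limma q = 0.778) and -0.88 in vit C-treated cells (limma q = 0.181). The 96 h call in UT cells was lost without either of the UT 8 h arrays (log2 -1.6 and -1.7), and leaving out each array in turn gave differences from -2.07 to -1.15.

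SLC2A8, the intracellular GLUT8, kept the narrowest range of group means of the 8 genes. In UT cells it read 1.42 and 1.61 at 8 h, 2.12, 1.98 and 2.01 at 24 h, 1.57 and 1.63 at 48 h, and 2.18, 2.08 and 1.57 at 96 h. The vit C-treated arrays read 1.18, 1.13 and 1.42 at 8 h, 1.66 and 1.5 at 24 h, 1.41 and 1.32 at 48 h, and 1.83 and 1.76 at 96 h. The UT difference of 24 h from 8 h was 0.52 and did not pass the test (limma q = 0.196). The UT F test did not call any of its 3 probes (limma q = 0.142, 0.0918 and 0.557). Probe 3, printed above, read -0.97, -0.73 and -3.33 at UT 96 h, so that 1 array stood far below the other two, while that array's bright probe, at 1.57, was the lowest of its group.

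SLC2A9, the urate carrier GLUT9, showed the largest rise at 96 h of the 8 genes. Its brightest probe read -1.3 and -1.19 in UT cells at 8 h, -1.77, -1.95 and -1.54 at 24 h, -1.11 and -1.02 at 48 h, and 0.25, 0.47 and 0.24 at 96 h. The vit C-treated arrays read -1.14, -1.35 and -1.09 at 8 h, -1.7 and -2.13 at 24 h, -0.8 and -0.83 at 48 h, and 0.66 and 0.67 at 96 h. The 96 h arrays of both arms were the only ones above 0, and the 24 h arrays were the lowest. Arrays that lay apart and higher at 96 h than at 8 h were found for 17.7% of all genes in UT and 27.2% in vit C-treated cells.

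At 96 h SLC2A9 was 2.95-fold higher than at 8 h in UT cells (log2 1.56, SE 0.19, limma q = 2.79e-05) and 3.63-fold higher in vit C-treated cells (log2 1.86, SE 0.19, limma q = 4.3e-06). All 3 probes rose, though no RefSeq accession was found for probe 3. Probe 2 was 2.1-fold and probe 3 was 3-fold higher in UT cells (limma q = 0.0154 and 0.000585), and they were 2.01-fold and 3.23-fold higher in vit C-treated cells (limma q = 0.0157 and 0.000278). The probes correlated pairwise at 0.93, 0.94 and 0.88 over the 19 arrays. At 24 h the difference from 8 h was -0.51 in UT cells (limma q = 0.183) and -0.72 in vit C-treated cells (1.65-fold, limma q = 0.0296), under the fold limit. The order of group means ran from -1.92 at vit C-treated 24 h to 0.67 at vit C-treated 96 h. UT 48 h, vit C-treated 48 h, UT 96 h and vit C-treated 96 h formed its upper end with no overlap between these neighbours. The 96 h difference between the arms was 0.35 (-0.05 to 0.74).

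**Figure D3:**
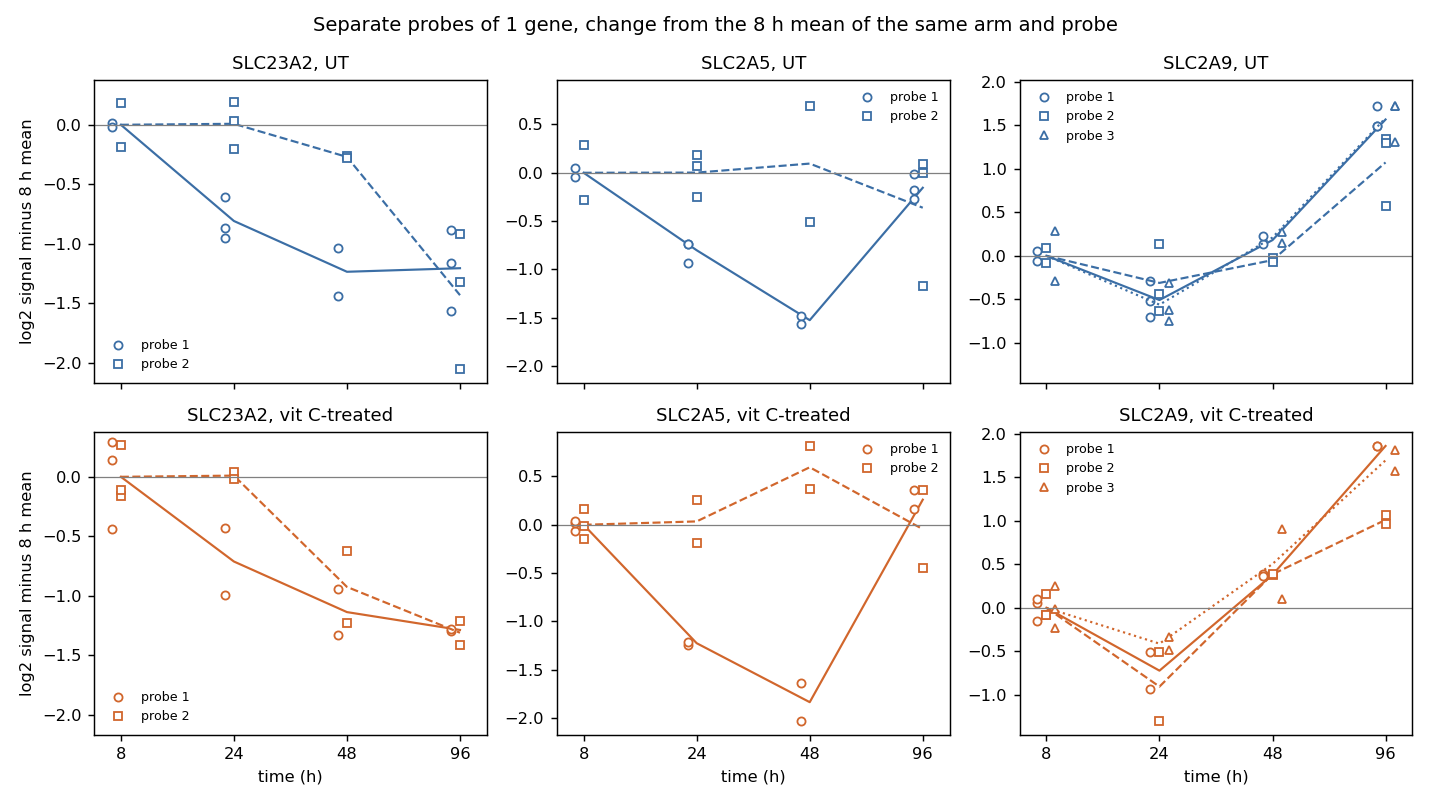
Change of each probe of SLC23A2, SLC2A5 and SLC2A9 from its mean at 8 h in the same arm (vertical axis, log2) against time in hours (horizontal axis), UT and vit C-treated cells in separate panels, 1 point per array. The 3 SLC2A9 probes rise together at 96 h (log2 1.07 to 1.58 in UT cells), both SLC23A2 probes are lower at 96 h, and only the bright SLC2A5 probe dips at 48 h.

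At 96 h against 8 h, 6 of the 8 genes were not set aside in either arm. Of these, 1 (SLC2A9) was called higher and 2 (SLC23A2 and SLC2A6) lower in UT cells. Among all genes tested 8.9% were called higher, 7.18% lower and 16.1% either way. The calls of SLC23A2 and SLC2A6 were lost with slide as a fixed block. Within slide 1, which holds both UT 8 h arrays and UT 96 h replicate 1 alone, the differences were -1.16, -1.5 and 1.49 for SLC23A2, SLC2A6 and SLC2A9, given as values because the 96 h group there is 1 array. In vit C-treated cells 1 gene was called higher (SLC2A9) and 3 lower (SLC23A2, SLC2A6 and the dim SLC2A3 probe), with 10.9% of all genes called higher, 18% lower and 28.9% either way. In that arm, time, slide and scan day cannot be told apart at 96 h. At 24 h against 8 h none of the 8 genes was called in either arm, with 2.65% of all genes called in UT and 5.61% in vit C-treated cells. SLC23A2 and SLC2A5 were among the genes set aside in both. Of the 5 and 6 genes left, an unadjusted p of at most 0.05 at any fold was reached by 2 in UT (SLC2A8 and SLC2A9) and 1 in vit C-treated cells (SLC2A9), and the methods' t-test called 0 in both. Over the 7 detected genes (above background throughout 1 group or more), the median 96 h minus 8 h difference was -0.11 in UT and 0.26 in vit C-treated cells, beside -0.05 and -0.02 over all detected genes.

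Across the 19 arrays, which share slides and times, SLC2A6 and SLC2A9 ran opposite to each other (r = -0.84), as did SLC23A2 and SLC2A1 (r = -0.73), and all other pairs of the genes correlated between -0.57 and 0.5. Of 9991 genes with a probe bright enough to compare, those most like each transporter by Pearson's r over the 19 arrays were as follows. SLC2A5 was most like GPRC5C (0.95), IL12RB2 (0.95) and GPNMB (0.939), and SLC2A9 was most like CDKN1C (0.973), VCX (0.967) and PPP1R3G (0.966). SLC2A6 was most like SIRT7 (0.975), SIRT6 (0.974) and ABCC10 (0.972). SLC23A2 was most like FBXO38 (0.923), CYP19A1 (0.917) and ZCCHC14 (0.912). The likeness was lower for SLC2A1, led by SREBF1 (0.832), HIF1A (0.825) and FADS2 (0.819), and for SLC2A8, led by P2RX7 (0.868), WDR5 (0.85) and ZNF841 (0.845).

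Transported sugar is trapped by phosphorylation, and transported dehydroascorbic acid by reduction, so genes of these steps were counted beside the carriers. Among the 7 hexose phosphorylation genes, KHK and HK2 were called in the comparisons below, and HKDC1, which was dim, is given with the dim genes. KHK, ketohexokinase, which phosphorylates the fructose that SLC2A5 carries, read -4.24 and -4.55 in UT cells at 8 h, -2.3 and -2.68 at 48 h, and -1.69, -1.21 and -2.78 at 96 h. The 96 h arrays were all above the 8 h ones, as was so for 17.7% of all genes in UT cells. KHK was 3.74-fold higher at 48 h (limma q = 0.00386) and 5.66-fold higher at 96 h (limma q = 9e-05) in UT cells, and 2.72-fold and 2.85-fold higher in vit C-treated cells (limma q = 0.00822 and 0.00415). Of these calls, the one at 48 h in vit C-treated cells was lost without 48 h replicate 1 of that arm. With normexp background correction the KHK differences were smaller, at 0.93 and 1.22 (log2) in UT cells and 0.72 and 0.38 in vit C-treated cells, and only that at UT 96 h was called.

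HK2, hexokinase 2, rose from 8 h in vit C-treated cells, by 2.99-fold, 3.49-fold and 2.29-fold at 24, 48 and 96 h on its brighter probe and by 4.4-fold, 4.29-fold and 5.88-fold on its dimmer one (limma q from 6.39e-05 to 0.0021). In UT cells only the brighter probe at 48 h was called (2.17-fold, limma q = 0.0141). The dimmer probe read -1.73, -1.77 and -1.8 in vit C-treated cells at 8 h against -0.29 and -0.56 in UT cells. At 96 h it read 0.93 and 0.65 against -0.03, -0.84 and -1.3, so the order of the arms was reversed. HK2 was the 1 gene of the 7 called higher with vit C at 96 h (2.85-fold on the dimmer probe, SE 0.34 on the log2 scale, limma q = 0.0188), where 2.72% of all genes were called higher. Its brighter probe differed by 0.41 and was not called, and the call was lost without either vit C-treated 96 h array and with the mean of the 2 probes (log2 0.96). The UT call at 48 h was lost without any 1 of its 4 arrays.

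The regulator TXNIP, which lowers glucose uptake by taking GLUT1 off the cell surface, was 2.08-fold higher at 96 h than at 8 h in vit C-treated cells (limma q = 0.0023), from 5.59, 5.58 and 5.5 to 6.65 and 6.59. The UT arrays went from 5.71 and 5.93 to 6.36, 6.34 and 6.81, a 1.6-fold difference under the fold limit (limma q = 0.0377). ARRDC4, its relative, was called in no comparison.

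Among the 9 other GLUT and SVCT genes, 5 were detected in at least 1 group. SLC2A11 (GLUT11) was lower than at 8 h in vit C-treated cells at all later times, by 2.77-fold, 3.11-fold and 2.56-fold (limma q = 0.0189, 0.00427 and 0.00931). Its 8 h arrays there read -3.05, -2.84 and -2.29 and its 96 h arrays -4.08 and -4.09. The 3.11-fold value at 48 h includes replicate 2, at -4.27, which was not well above background. The 24 h call was lost without vit C-treated 8 h replicate 3 or 24 h replicate 2 (log2 -0.91 without the latter), and the 96 h call without 96 h replicate 2. With normexp background correction the 24 h and 48 h differences were -0.61 and -0.43 and were not called. SLC2A13, the proton-coupled inositol carrier, had 1 probe 2.16-fold higher at 24 h than at 8 h in UT cells (limma q = 0.00421), a call lost without either UT 8 h array, with normexp (log2 0.74) and with the mean of its probes (log2 0.61). SLC2A2, SLC2A4 and SLC2A7 were called lower at 96 h with vit C, against UT (SLC2A2 and SLC2A7) or against 8 h (SLC2A4 and SLC2A7), below background in both groups compared, so no fold is given. These calls were all lost with quantile normalization and with a floor on dim signals, and each was lost without 2 or more single arrays.

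Of the 9 dehydroascorbate reduction and ascorbate recycling genes, 6, 7, 7 and 7 were not set aside between vit C-treated and UT cells in order of time. Of these limma called none at any time, against 0.549%, 1.65%, 3.64% and 12.8% of all genes tested. TXNRD1, thioredoxin reductase, was 3.08-fold lower at 96 h than at 8 h in UT cells (limma q = 0.0219). CYB561, an ascorbate-dependent electron carrier of membranes, was lower at 48 h than at 8 h in vit C-treated cells on 2 probes (2.26-fold and 2.5-fold, limma q = 0.000667 and 0.0263). P4HB, protein disulfide isomerase, had 1 probe 2.29-fold lower in vit C-treated cells at 96 h (limma q = 0.0382). GSTO2, an omega-class glutathione transferase with dehydroascorbate reductase activity, was called higher at 96 h in UT cells on a probe above background in neither group compared, and no fold is given. That call was lost with normexp (log2 0.27) and with the floor. The calls of P4HB and of the dimmer CYB561 probe were lost without any 1 of the 5 arrays compared, and that of TXNRD1 without either UT 8 h array or UT 96 h replicate 2 (log2 -1.15). With normexp the dimmer CYB561 probe differed by -0.57 and was not called.

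Among the 5 sodium-glucose cotransporters and the 6 urate transporters, which were mostly dim, SLC5A10 was at least 2.43-fold lower at 96 h than at 8 h in vit C-treated cells (limma q = 0.00113), a bound because it was above background at 8 h only. This call was lost with a floor on dim signals (log2 -0.08), and the difference was -1.08 with normexp. SLC5A10 was also called lower at 48 h than at 8 h in vit C-treated cells (limma q = 0.0404), with a bound of only 1-fold. The 48 h call was lost with normexp (log2 0.01), with the floor (log2 -0.08) and without any 1 of the 5 arrays. In UT cells SLC5A10 read -4.4 and -3.86 at 8 h and -6.26, -4.4 and -6.44 at 96 h, where 1 of 3 arrays was above background, so no fold is given for its call (limma q = 0.028), which was lost with normexp (log2 -0.26) and with the floor (log2 -0.32). SLC17A3 was at least 1.11-fold lower with vit C at 8 h (limma q = 0.043), above background on 1 of the 2 UT arrays, and its call was lost without any 1 of the 5 arrays and with normexp (log2 -0.17). SLC17A1 was called lower with vit C at 96 h, against UT and against 8 h, below background in the groups compared. Both SLC17A1 calls were lost with quantile normalization (log2 -0.06 and -0.02), with the floor and without 4 of the 5 single arrays. The UT call of SLC5A10 was lost without any 1 array except UT 96 h replicate 2. The calls of HKDC1, SLC17A3 and SLC5A1 as higher at 96 h in vit C-treated cells gave no fold above their bound, and all 3 turned negative with another background correction.

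**Figure D4:**
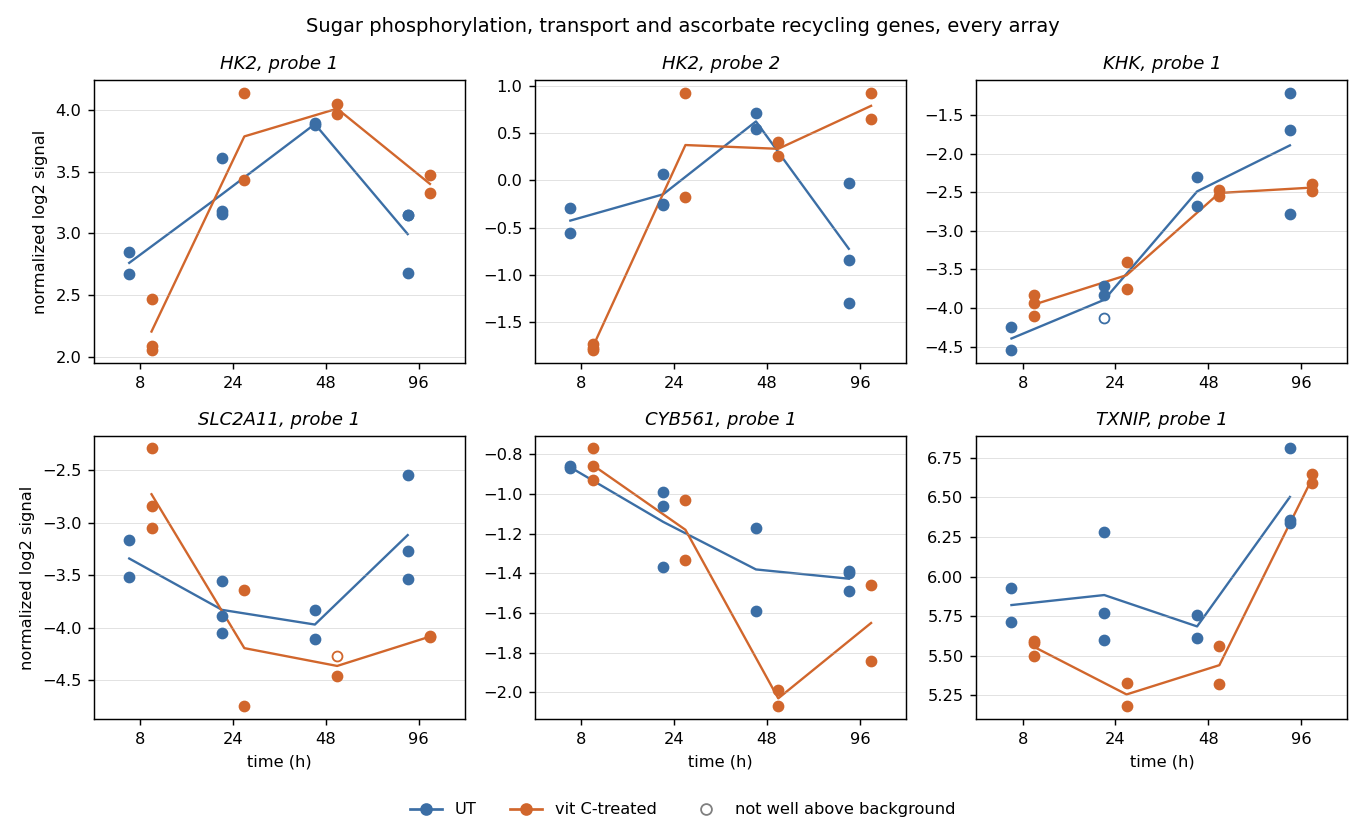
Normalized log2 signal (vertical axis) against time in hours (horizontal axis) for HK2 (2 probes), KHK, SLC2A11, CYB561 and TXNIP, 1 point per array with lines through the group means, UT in blue and vit C-treated in orange. The dimmer HK2 probe starts lower (-1.73 to -1.8) and ends higher (0.65 and 0.93) with vit C than without, and KHK rises in both arms.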

How the data were processed

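Each of the 19 THP-1 cultures was read on a one-colour Agilent array, scanned and extracted by the authors with Feature Extraction (10.5.1.1 per the file headers). The deposited intensity is the processed signal, which is background-subtracted. The log2 values deposited in the series matrix, which the authors made by a 75th percentile shift, were tried as an alternative. Here the log2 of the processed signal minus each array's 75th percentile was used. Control spots were left out, spots flagged as outliers were kept, and spots of a probe were averaged. Of 52857 spots 51538 were not controls, covering 50238 probes and 31033 gene names. Groups came from the labels.

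One limma model (limma 3.58.1, R 4.3.3, data.table version 1.17.8) of 8 group means was fitted to all probes (11 residual degrees of freedom, 3.07 prior), with Benjamini-Hochberg adjustment. Pairs of groups were called at a log2 difference of 1 and q of 0.05 over the probes left after genes with opposing probes were removed. F tests had 3 degrees of freedom and were adjusted over all probes. limma replaced the t-test of the methods because groups held 2 or 3 arrays, and that small number limits the precision. In data simulated for UT 96 h against 8 h over 31033 genes, 86% of 100 genes changed by log2 1.5 and 100% of 100 changed by log2 3 were called, with 15 unchanged genes called. "Detected" means that all arrays of 1 group or more were well above background. A bound ("at least") sets the bright group's mean against the higher of the dim probe and the lowest well-above-background signal of each array.

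All 8 genes were named. From the pathway lists, genes called in a comparison were named, at most 4 per list and comparison by size of change. The genes and lists were chosen with earlier results of these data known. The alternatives were quantile normalization, normexp with an offset of 50, a percentile over detected probes, a floor of 20, the deposited log2 values, gene means, dim probes left out, opposing probes kept, array weights, an intensity trend, slide as a random or fixed block, the replicate block, other thresholds, only the groups compared, the methods' t-test, leaving out each array, and, chosen after the data were seen, the arrays of slide 1 or slide 2 alone. Coordinates were not used here. Figures were drawn with matplotlib 3.10.9 in Python 3.11.15.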

Additional observations from a re-analysis of the deposited data

Results flagged for a closer look

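HK2 was the 1 gene of the 46 transporters and pathway genes whose vit C effect differed between the 4 times by test, a share of 2.17% beside 1.36% of all genes, so that 1 call in lists of this size says nothing particular about the lists. On its dimmer probe, the limma F test of the differences between the vit C effects gave a q of 0.0375 (F = 12.6). The log2 differences of vit C-treated from UT cells, in order of time, were -1.34, 0.52, -0.29 and 1.51. The brighter HK2 probe gave differences of -0.56, 0.46, 0.13 and 0.41 and did not pass (F = 3.75, limma q = 0.249). Over the alternatives and single arrays left out, the q of the limma F test ran from 0.00673 to 0.157. It was over the threshold with gene means of probes (0.0604), slide as a random block (0.0556) and the replicate block (0.141), and without most single arrays.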

How the results depend on the processing

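The rise of SLC2A9 (log2 1.4 to 1.56 in UT and 1.51 to 1.9 in vit C-treated cells) and the fall of SLC23A2 (-1.32 to -1.16 and -1.37 to -1.1) at 96 h kept their direction under every alternative, and also without single arrays. For vit C against UT at 8 h the count of transporters called was 1 instead of 0 with array weights and at an unadjusted p. At 96 h it was 0 instead of 1 with quantile normalization, normexp, the percentile over detected probes, the floor, dim probes left out, only the 2 groups or the methods' t-test, 2 at an unadjusted p, and 0 to 1 without single arrays. For UT 48 h against 8 h it was 0 instead of 1 with gene means, only the 2 groups or the t-test, 2 with opposing probes kept, and 0 to 1 without single arrays. For UT 96 h it was 1 instead of 3 with slide as a fixed block or only the 2 groups, 0 by the t-test and 2 to 3 without single arrays. For vit C-treated 24 h it was 1 instead of 0 with normexp, the percentile over detected probes, opposing probes kept or no fold threshold, and 0 to 2 without single arrays. For vit C-treated 48 h it was 0 instead of 1 with normexp, slide as a fixed block or the t-test (and 0 on slide 2 alone, where the 48 h group is 1 array and gives no test of its own spread), 2 with opposing probes kept or no fold threshold, and 0 to 1 without single arrays. For vit C-treated 96 h it was 3 to 6 instead of 4, and 3 to 4 without single arrays. The F tests called 2 instead of 4 in UT cells with slide as a fixed block (4 to 5 without single arrays) and 4 to 8 instead of 6 in vit C-treated cells (3 to 6 without single arrays), and the F test between vit C effects called 1 instead of 0 with quantile normalization, the floor or an unadjusted p. The cause was not tested.

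Directions turned for SLC2A3 in vit C-treated cells at 96 h (-0.13, and -0.3 to 0.07 without single arrays), for SLC2A2 in vit C against UT at 96 h with quantile normalization (0.01), and with normexp for SLC5A10 at 48 h (0.01), HKDC1 (-0.38), SLC17A3 (-0.47) and SLC5A1 (-0.46) in vit C-treated cells. The median of all probes at 96 h, vit C minus UT, was -0.14, and -0.45 with normexp, -0.03 with quantile normalization, -0.05 with the percentile over detected probes and 0 with the floor. Slide as a fixed block gave no value for vit C-treated 96 h arrays, which fill their slide.

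With the replicate block, 0 instead of 1 transporter was called for vit C against UT at 96 h, 1 instead of 0 (SLC2A5) for vit C-treated 24 h against 8 h, and 4 instead of 6 by the F test in vit C-treated cells. The deviations of arrays with equal replicate numbers from their group means correlated at -0.13 to 0.16. With 2 or 3 arrays in a group this cannot settle whether equal numbers marked paired samples. The numbers are those of the titles. For both 48 h groups the descriptions number the arrays 2 and 3 where the titles have 1 and 2, so the block and the array names at 48 h depend on that choice.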
